A study of Arabidopsis thaliana with 30 samples.

Results

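SAUR26 (AT3G03850), SAUR27 (AT3G03840), SAUR28 (AT3G03830) and SAUR29 (AT3G03820) are 4 neighbouring members of the SMALL AUXIN UP RNA family of Arabidopsis. They were chosen by name, and are 4 of the 25300 genes in the table. Their RNA was followed in whole 4-d-old seedlings grown in continuous red light of 50 µmol m-2 s-1. Seeds were first stratified in the dark for 5 d at 4 °C. All seedlings spent 2 d at 21 °C and then a further 2 d at 27 or 21 °C, and were collected 96 h after stratification. The 5 genotypes, all in the Col-0 background, were pif457, MIM156, dcl1-24/hyl1-2, hyl1-2 and wild-type Col-0. The pif457 line carries mutations in PIF4, PIF5 and PIF7. MIM156 (35S:mim156) carries a decoy RNA for miR156, built on the IPS1 backbone and driven by the constitutive 35S promoter, so the decoy is not restricted to growing tissue. The hyl1-2 mutant lacks a cofactor of miRNA processing, and dcl1-24/hyl1-2 adds to it a dominant DCL1 allele found in a mutagenesis screen for suppressors of hyl1-2. Each genotype was sequenced at both temperatures as 3 libraries per group, which makes 10 groups and 30 libraries.

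SAUR genes were first found as short transcripts that accumulate quickly after auxin treatment, and their promoters respond to auxin, brassinosteroid and light signals. SAUR proteins bind and inhibit the PP2C.D phosphatases, which otherwise remove the activating phosphate from plasma membrane H+-ATPases. Inhibition of PP2C.D therefore keeps the proton pumps active, acidifies the cell wall and loosens it, and so promotes cell elongation in hypocotyls and other growing organs. In warmth, PIF4 and PIF7 raise auxin synthesis through YUC8 and act on growth genes directly, and the SAUR26 group has been linked to natural variation in growth at higher temperature.

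The 4 genes lie within 7054 bases of chromosome 3 (assembly TAIR10.1), and each is a single exon with both untranslated regions annotated. SAUR29 spans positions 976715 to 977474 on the minus strand, SAUR28 979976 to 980562 on the minus strand, SAUR27 981072 to 981801 on the plus strand and SAUR26 983057 to 983768 on the plus strand. SAUR28 and SAUR27 face away from each other across a gap of 509 bases. The gap between SAUR27 and SAUR26 was 1255 bases and that between SAUR29 and SAUR28 2501 bases.

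The 250 bases before each annotated transcript start are shown because the warm response of 4 adjacent genes is described below, and because the windows share a hexamer that PIF proteins bind. The sequences were read from the TAIR10.1 genome and run 5′ to 3′ on the strand of the gene. They cover chr3:982807-983056 for SAUR26, chr3:980822-981071 for SAUR27, chr3:980563-980812 for SAUR28 and chr3:977475-977724 for SAUR29. Capitals mark matches to the searched motifs on either strand.
SAUR26: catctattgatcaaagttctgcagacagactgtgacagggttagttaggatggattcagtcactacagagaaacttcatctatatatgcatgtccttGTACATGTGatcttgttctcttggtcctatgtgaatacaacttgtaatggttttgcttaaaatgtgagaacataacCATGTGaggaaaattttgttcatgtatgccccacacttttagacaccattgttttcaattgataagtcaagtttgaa
SAUR27: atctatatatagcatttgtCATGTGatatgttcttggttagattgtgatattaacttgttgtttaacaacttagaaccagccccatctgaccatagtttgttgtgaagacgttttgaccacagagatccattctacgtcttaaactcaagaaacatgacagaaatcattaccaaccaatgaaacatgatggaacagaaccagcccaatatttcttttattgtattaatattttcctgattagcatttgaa
SAUR28: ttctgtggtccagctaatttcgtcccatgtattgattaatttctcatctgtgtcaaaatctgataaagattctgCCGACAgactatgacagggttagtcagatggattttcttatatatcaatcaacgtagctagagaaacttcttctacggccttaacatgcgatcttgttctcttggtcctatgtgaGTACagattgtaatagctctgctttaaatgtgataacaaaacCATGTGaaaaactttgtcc
SAUR29: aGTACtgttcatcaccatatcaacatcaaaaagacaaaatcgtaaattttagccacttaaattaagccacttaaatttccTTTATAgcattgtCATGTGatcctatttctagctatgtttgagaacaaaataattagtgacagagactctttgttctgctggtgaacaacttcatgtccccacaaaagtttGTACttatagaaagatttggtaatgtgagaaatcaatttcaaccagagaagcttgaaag

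The PBE-box CACATG, the E-box variant known for PIF binding, was present in all 4 promoter windows, counting 250 bases before and 50 bases after the start on both strands. All of its matches read CATGTG on the gene's strand. SAUR26 had them at 150 and 77 bases before the start, SAUR27 at 231 before the start and at base 13 of the transcript, SAUR28 at 19 before and SAUR29 at 157 before. Of all 27443 nuclear protein-coding genes, 12.9% held a PBE-box in the same window, and of 76 other SAUR genes 38.2% did. The G-box CACGTG, the classical PIF site, was in 0 of 4 windows, against 7.68% of all genes and 1.32% of the other SAUR genes.

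Other motifs were less shared. GTAC, the core recognised by the SPL proteins that miR156 represses, was in 3 of 4 windows (SAUR26, SAUR28 and SAUR29), but 39.0% of all genes hold these 4 letters. In SAUR26 this core overlapped the distal PBE-box by 1 base. The auxin response element TGTCGG occurred once, 176 bases before SAUR28 and on the opposite strand, against 5.12% of all genes. The element TGTCTC was in 0 windows, against 14.2% of all genes, and the brassinosteroid element, searched as CGTGTG and CGTGCG, also in 0, against 6.52% and 1.96%. TATAAA was found only in the SAUR29 window, at 170 bases before the start and at base 25 of the transcript, against 52.1% of all genes. The longest identical stretch between the upstream sequences was 26 bases, shared by SAUR26 and SAUR28, and the other 5 pairs shared at most 12. These are matches of letters and no factor was measured on them.

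**Figure D1:**
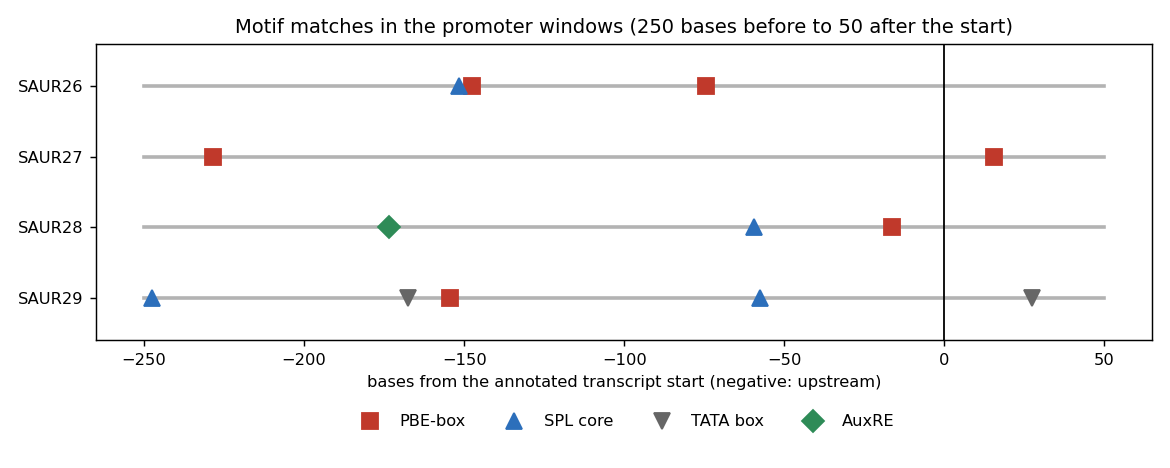
Positions of motif matches in the 4 promoter windows, in bases from the annotated transcript start (horizontal axis, negative upstream), 1 line per gene. A PBE-box (square) is present on every line, the SPL core (triangle) on 3 of 4 and the auxin response element (diamond) on 1.

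The coding sequences were 279 to 291 bases long and close to each other. Identity over the aligned coding bases was 86.3% for SAUR27 and SAUR29, 83.9% for SAUR26 and SAUR28, 82.1% for SAUR26 and SAUR29, 81.9% for SAUR26 and SAUR27, 78.7% for SAUR27 and SAUR28, and 77.7% for SAUR28 and SAUR29. Chromosomal neighbours were therefore not the most similar pairs. The longest identical run between any 2 of the transcripts was 36 bases, in SAUR27 and SAUR29, and no longer run was found elsewhere in the genome. Reads were 150 bases long, and only uniquely mapped ones were counted. The counts are shown per gene on that basis, and reads lost because they matched 2 members equally were not measured. None of the 4 genes overlapped another gene in the table.

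Levels are given as scaled CPM. The deposited values are CPM, reads scaled to a common library total, and each library was divided by a median-of-ratios factor, the scaling that the study's own test uses. The low values were whole multiples of 1 step per library, so that reads could be recovered for 100% of values at a tolerance of 0.001. The libraries held 18.4 to 27.1 M reads. Reads per library were 7 to 168 for SAUR26, 1 to 94 for SAUR27, 0 to 90 for SAUR28 and 2 to 117 for SAUR29, so these were genes of low abundance. Their mean levels lay between percentile 5.72 (SAUR28) and percentile 18.3 (SAUR26) of the tested genes. A count of 0 allows up to 3 reads, or 0.103 to 0.197 scaled CPM depending on the library, which covers counting error only. The variance of reads within groups was a median of 2.73 (SAUR28) to 6.04 (SAUR26) times the mean, so replicates differed by more than counting alone. All 4 genes passed the filter of at least 1 scaled CPM in at least 3 libraries. SAUR28 reached that level in 12 libraries, all at 27 °C. It thus entered the tests through its warm libraries alone, which bears on every count of warm responses below that includes it.

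Comparisons used limma on log2(scaled CPM + 0.5), fitted once over all 30 libraries, with p-values adjusted by Benjamini-Hochberg over 21765 tested genes. A gene was called at an adjusted p under 0.05, and log2 changes are given ± SE (n = 3 per group). The SE is 1 pooled value per gene and kind of comparison, from the fit over all 30 libraries. It is therefore the same in every genotype and does not show the spread of the libraries compared. An unadjusted p under 0.05 is common here. In the warm responses 26.8 to 42% of all genes had one, and in the differences of warm response 4.42 to 23.7%. On this scale the added 0.5 understates the changes of low genes, so ratios of mean levels, which carry no added value, are given beside it for the warm responses and for MIM156 against Col-0. Because the RNA came from whole seedlings, more cells expressing a gene and more RNA per cell cannot be told apart. Nothing tells whether libraries of a group came from separate sowings beyond their being called biological replicates, so p-values measure the spread between these libraries. Whether 2 groups of 3 libraries overlap is given as description only. The share of all genes whose groups do not overlap was not counted.

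The labels were checked on the targeted genes. IPS1 RNA averaged 39154 scaled CPM at 27 °C and 50066 at 21 °C in MIM156, and at most 4.98 in any group of the other genotypes. In pif457, PIF4 averaged 55.2 and 13.8 scaled CPM at 27 and 21 °C against 86.1 and 31.7 in Col-0, PIF5 11.7 and 5.41 against 96.0 and 72.4, and PIF7 1.41 and 1.02 against 11.04 and 13.8. HYL1 averaged 15.9 and 3.36 scaled CPM in hyl1-2 against 7.19 and 5.87 in Col-0, so it was higher than in Col-0 at 27 °C (adjusted p = 0.000286, limma). HYL1 overlaps a gene at a mean of 180.5 scaled CPM, and a count over the whole gene does not show a lost protein. The names hyl1-2 and dcl1-24/hyl1-2 below stand for the libraries labelled so. DCL1 RNA was present in all groups (33.7 to 87.9) and does not show a point allele. Summed photosynthesis markers, 7 genes, had lower ranges at 27 °C than at 21 °C in every genotype except pif457, where the ranges of the sums (51630 to 55620 and 52440 to 65020 scaled CPM) overlapped. In Col-0 the sum was 33970 to 42140 at 27 °C and 60220 to 75220 at 21 °C. Summed root hair markers, also 7 genes, were 22.1 to 31.6 at 27 °C and 14.2 to 131 at 21 °C in Col-0, and 3.20 to 12.4 and 74.7 to 97.7 in hyl1-2. Seed storage markers, 4 genes, summed to 4.52 to 98.2 in MIM156 at 27 °C and to at most 26.1 in any library of the other groups. Chloroplast-encoded genes held 0.161 to 13.1% of the CPM of a library. In each genotype every 27 °C library held a lower share than every 21 °C library. No marker of the first 2 lists was at 0 in all 3 libraries of any group, and the part of these shifts in the results below was not tested.

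Warmth raised all 4 genes in Col-0, and 4 of 4 were called higher at 27 °C, where 8.51% of all tested genes were. SAUR28 is in this count although only 27 °C libraries brought it through the filter. Its call remained when no filter was used, as did its calls in the other genotypes where warmth raised it. SAUR26 stood at 3.86, 3.26 and 5.88 scaled CPM at 27 °C, against 1.27, 1.77 and 1.74 at 21 °C. Every warm library was above every cool one, and the log2 change was 1.18 ± 0.37 (adjusted p = 0.0228), with a ratio of means of 2.72. SAUR27 had 2.42, 1.89 and 2.17 scaled CPM at 27 °C, against 0.551, 0.413 and 0.257 at 21 °C. This was the steepest of the Col-0 changes, with a log2 change of 1.56 ± 0.42 (adjusted p = 0.00883) and a ratio of means of 5.31, and the groups did not overlap.

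SAUR28, the least abundant of the 4, had 1.1, 1.5 and 1.58 scaled CPM at 27 °C, against 0.386, 0.354 and 0.410 at 21 °C. Its cool libraries rested on 6 to 8 reads each, and its warm ones on 30 to 35. The log2 change was 1.09 ± 0.30 (adjusted p = 0.0103), the ratio of means was 3.63, and the groups did not overlap. SAUR29 stood at 4.19, 2.38 and 3.26 scaled CPM at 27 °C, against 2.32, 0.944 and 0.872 at 21 °C. Its highest cool library came within reach of its lowest warm one, and the log2 change was 1.06 ± 0.32 (adjusted p = 0.0207), with a ratio of means of 2.38.

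The Col-0 calls of SAUR27 and SAUR28 held when any single library was left out. Those of SAUR26 and SAUR29 did not. SAUR26 had an adjusted p of 0.0792 without the Col-0 library of replicate 1 at 21 °C and 0.131 without that of replicate 3 at 27 °C. SAUR29 had adjusted p-values of 0.0957, 0.0985, 0.102 and 0.0617 without replicate 2 or 3 at 21 °C and replicate 1 or 3 at 27 °C. Without replicate 3 at 27 °C, 2 of the 4 genes were called.

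**Figure D2:**
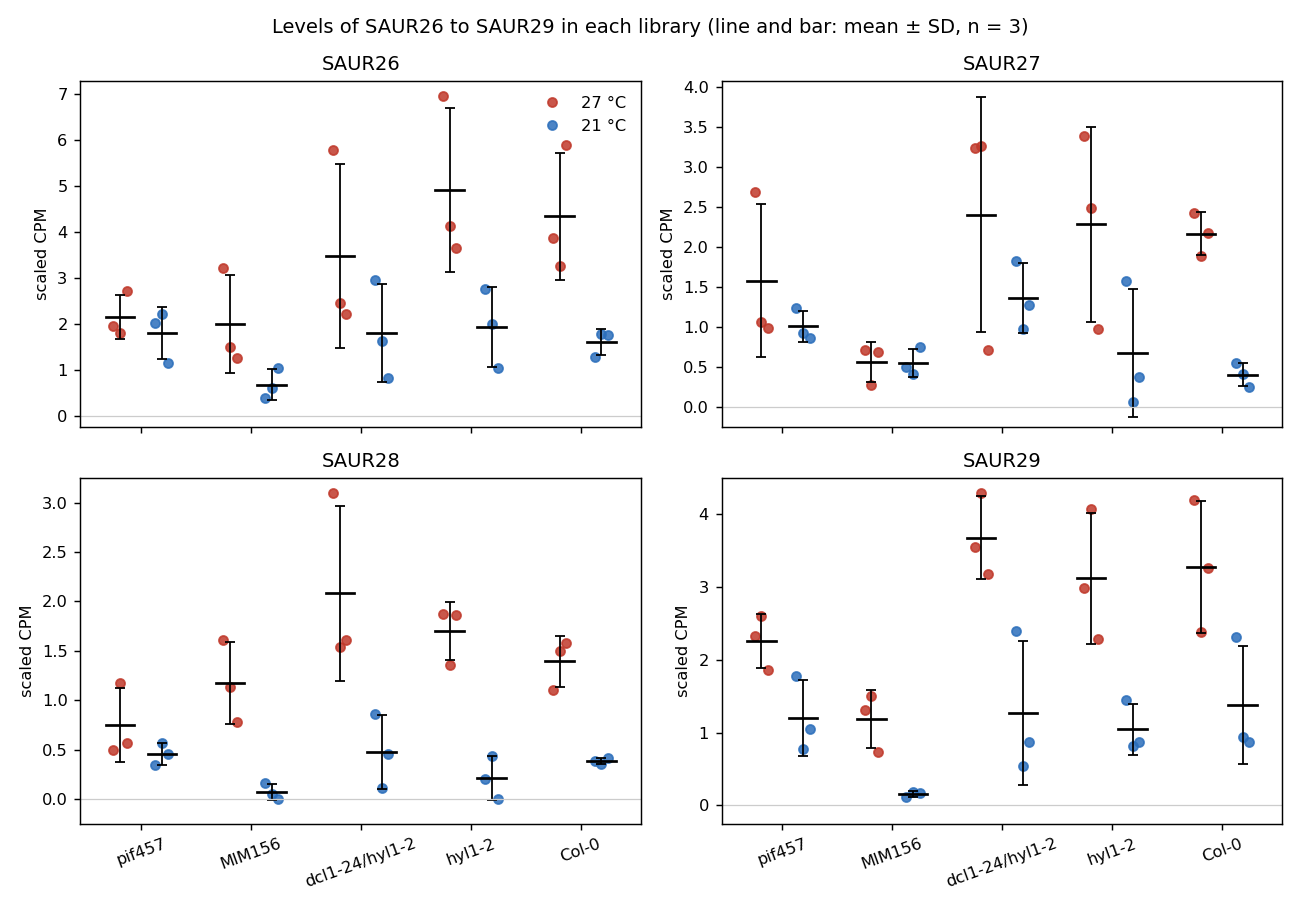
Scaled CPM (vertical axis) of each gene in each library, by genotype (horizontal axis), with 27 °C in red left of 21 °C in blue, and lines and bars for mean ± SD (n = 3). In Col-0 the 27 °C points lie above all 21 °C points for each gene, whereas in MIM156 the SAUR27 points of both temperatures overlap, at 0.273 to 0.718 and 0.411 to 0.751.

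In pif457, 0 of 4 genes were called higher at 27 °C by limma, where 8.27% of all genes were. Without adjustment 1 of the 4 had a p under 0.05, as did 30% of all genes, and edgeR and DESeq2 on whole reads called 0. SAUR26 had 1.95, 1.81 and 2.7 scaled CPM at 27 °C, against 2.02, 2.20 and 1.14 at 21 °C. The ranges overlapped, and the log2 change was 0.23 ± 0.37 (adjusted p = 0.729). SAUR27 had 2.68, 1.06 and 0.989 at 27 °C, against 1.23, 0.921 and 0.869 at 21 °C, with 1 warm library well above the rest and a log2 change of 0.38 ± 0.42 (adjusted p = 0.601). SAUR28 had 0.5, 1.18 and 0.571 at 27 °C, against 0.346, 0.563 and 0.457 at 21 °C (log2 change 0.35 ± 0.30, adjusted p = 0.468). SAUR29 came closest to a call. It had 2.32, 2.59 and 1.86 scaled CPM at 27 °C, against 1.78, 0.767 and 1.05 at 21 °C, so the groups did not overlap, and the log2 change was 0.73 ± 0.32 (adjusted p = 0.122). The ratios of means were 1.20 for SAUR26, 1.56 for SAUR27, 1.65 for SAUR28 and 1.88 for SAUR29. The 95% intervals reached up to a log2 change of 0.98 for SAUR26, 1.24 for SAUR27, 0.97 for SAUR28 and 1.4 for SAUR29.

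In MIM156, 3 of 4 genes were called higher at 27 °C, where 8.55% of all genes were, from low levels at 21 °C. SAUR28 had 1.61, 1.14 and 0.779 scaled CPM at 27 °C, against 0.166, 0.0456 and 0 at 21 °C. The cool libraries held 3, 1 and 0 reads and the warm ones 38, 25 and 18, and the log2 change was 1.53 ± 0.30 (adjusted p = 0.000535). The ratio of means was 16.6, over a cool group of 4 reads in all. SAUR29 had 1.31, 1.5 and 0.736 scaled CPM at 27 °C, against 0.111, 0.182 and 0.173 at 21 °C, where 2 to 4 reads were counted per library. Its log2 change was 1.33 ± 0.32 (adjusted p = 0.00430) and its ratio of means 7.60, over a cool group of 9 reads in all. SAUR26 had 3.21, 1.5 and 1.25 scaled CPM at 27 °C, against 0.387, 0.593 and 1.04 at 21 °C (log2 change 1.04 ± 0.37, adjusted p = 0.0460, ratio of means 2.95). Over its alternatives the adjusted p of SAUR26 ranged between 0.00668 and 0.256, and it was lost, for example, with a pseudocount of 2 (0.105), without MIM156 replicate 1 at 27 °C (0.256), or when only the MIM156 groups were fitted (0.0768). SAUR27 was not called. It had 0.718, 0.273 and 0.692 scaled CPM at 27 °C, against 0.498, 0.411 and 0.751 at 21 °C, and its log2 change was -0.01 ± 0.42 (95% interval -0.87 to 0.86, adjusted p = 0.995, ratio of means 1.0).

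In dcl1-24/hyl1-2, 2 of 4 genes were called higher at 27 °C, where 6.48% of all genes were. SAUR28 had 3.10, 1.54 and 1.60 scaled CPM at 27 °C, against 0.863, 0.108 and 0.456 at 21 °C (log2 change 1.43 ± 0.30, adjusted p = 0.00125, ratio of means 4.37). SAUR29 had 3.55, 4.29 and 3.17 at 27 °C, against 2.39, 0.541 and 0.866 at 21 °C (log2 change 1.37 ± 0.32, adjusted p = 0.00380, ratio of means 2.90). Both genes were higher in every warm library than in every cool one. SAUR26 had 5.78, 2.46 and 2.20 scaled CPM at 27 °C, against 2.95, 1.62 and 0.821 at 21 °C. Its ranges overlapped and its log2 change was 0.79 ± 0.37 (adjusted p = 0.158, ratio of means 1.94). With library totals as deposited in place of the factors it was called (adjusted p = 0.0275). SAUR27 had 3.24, 3.26 and 0.709 at 27 °C, against 1.83, 0.974 and 1.28 at 21 °C. One warm library lay below all 3 cool ones, and the log2 change was 0.49 ± 0.42 (adjusted p = 0.493, ratio of means 1.77).

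In hyl1-2, 4 of 4 genes were called higher at 27 °C, where 14.3% of all genes were. SAUR28 had 1.87, 1.36 and 1.86 scaled CPM at 27 °C, against 0.197, 0.438 and 0 at 21 °C, with a log2 change of 1.66 ± 0.30 (adjusted p = 0.000148) and a ratio of means of 8.02, over 10 reads in the cool group. SAUR29 had 2.98, 4.07 and 2.29 at 27 °C, against 1.45, 0.813 and 0.869 at 21 °C (log2 change 1.22 ± 0.32, adjusted p = 0.00533, ratio of means 2.98). SAUR26 had 6.94, 4.12 and 3.64 at 27 °C, against 2.76, 2.00 and 1.03 at 21 °C (log2 change 1.17 ± 0.37, adjusted p = 0.0160, ratio of means 2.54). For these 3 genes the groups did not overlap. SAUR27 had 3.38, 2.48 and 0.974 at 27 °C, against 1.58, 0.0625 and 0.380 at 21 °C. Its ranges overlapped, 1 cool library held 1 read, and the log2 change was 1.35 ± 0.42 (adjusted p = 0.0159, ratio of means 3.38). The hyl1-2 calls of SAUR28 and SAUR29 held when any library was left out. SAUR26 had an adjusted p of 0.108 without replicate 3 at 21 °C and 0.103 without replicate 1 at 27 °C. The SAUR27 call was lost without any of 4 hyl1-2 libraries, replicates 2 and 3 at 21 °C and replicates 1 and 2 at 27 °C, with adjusted p between 0.0565 and 0.122, and when only the hyl1-2 groups were fitted (0.0605). Without replicate 3 at 21 °C or replicate 1 at 27 °C, 2 of the 4 genes were called.

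**Figure D3:**
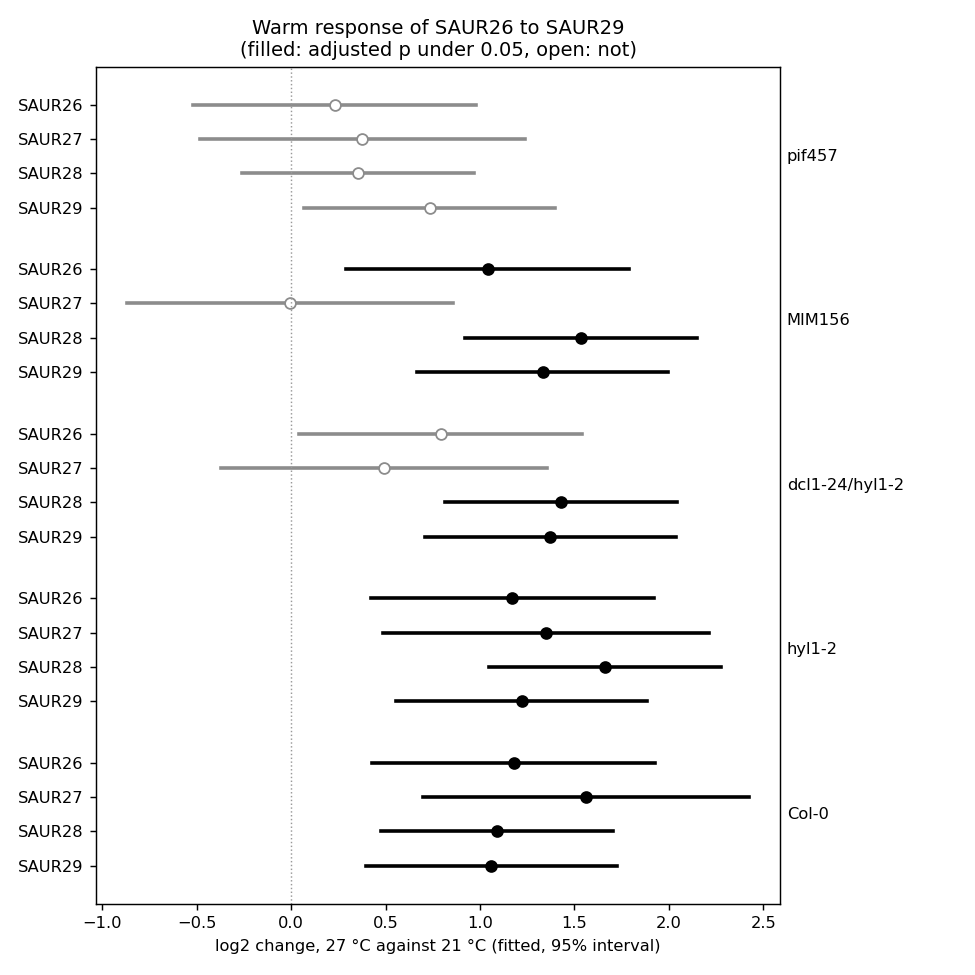
Fitted log2 change between 27 and 21 °C (horizontal axis) of the 4 genes in each genotype, with 95% intervals. Filled points were called at an adjusted p under 0.05 and open points were not, with 0 of 4 filled in pif457, 3 in MIM156, 2 in dcl1-24/hyl1-2 and 4 in both hyl1-2 and Col-0.

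The difference between the warm response of a line and that of Col-0 was tested directly, and 0 of 4 genes were called by limma in any of the 4 lines, with 0 also by edgeR and DESeq2. The shares of all genes called were 1.36% for pif457, 1.58% for MIM156, 0% for dcl1-24/hyl1-2 and 6.75% for hyl1-2. For dcl1-24/hyl1-2, 962 of all tested genes had an unadjusted p under 0.05, and edgeR and DESeq2 called 0 genes as well. Unadjusted, SAUR27 in MIM156 was the one member under 0.05 (limma), where 14.3% of all genes were. The loss of a call in pif457 is therefore not a shown difference from Col-0. The pif457 differences were -1.18 ± 0.60 for SAUR27 (adjusted p = 0.454), -0.95 ± 0.52 for SAUR26 (0.515), -0.74 ± 0.42 for SAUR28 (0.549) and -0.33 ± 0.46 for SAUR29 (0.875). All 4 estimates were below 0, and their 95% intervals reached 0.03, 0.11, 0.13 and 0.61 on the log2 scale, in the same order.

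In MIM156 the estimate of SAUR27 was the lowest of the 4. Its 95% interval overlapped those of the other members, and differences between genes were not tested. SAUR27 differed from Col-0 by -1.57 ± 0.60 (95% interval -2.79 to -0.35, unadjusted p = 0.0136, adjusted p = 0.202 by limma over all genes). Over the alternatives its adjusted p lay between 0.0823 and 0.507. SAUR28 differed by 0.44 ± 0.42 (adjusted p = 0.694), SAUR29 by 0.27 ± 0.46 (0.851) and SAUR26 by -0.14 ± 0.52 (0.946). The estimates of SAUR28 and SAUR29 depended on the scale. Over the alternatives they ran between 0.10 and 2.21 for SAUR28 and between -0.10 and 1.66 for SAUR29, the high ends by DESeq2 on whole reads and neither called (adjusted p = 0.283 and 0.284). In dcl1-24/hyl1-2, SAUR27 was again the lowest of the 4, with -1.07 ± 0.60, and the others lay between -0.39 and 0.34, all at an adjusted p of 1. In hyl1-2 the estimates ran between -0.21 (SAUR27) and 0.57 (SAUR28). The difference between dcl1-24/hyl1-2 and hyl1-2 was likewise called for 0 of 4 genes (limma, 0 at an unadjusted p under 0.05, and 0 by edgeR and DESeq2), where 4.72% of all genes were called. Its estimate was -0.86 ± 0.60 for SAUR27 and between -0.38 and 0.15 for the others. The comparisons with Col-0 share the same 6 Col-0 libraries.

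At 27 °C, MIM156 had less RNA of 3 of the 4 genes than Col-0 did, where 14.6% of all genes were called lower. SAUR27, at 0.273 to 0.718 scaled CPM in MIM156 against 1.89 to 2.42 in Col-0, fell by 1.35 ± 0.42 on the log2 scale (adjusted p = 0.0167), to a ratio of means of 0.259. SAUR29, at 0.736 to 1.5 against 2.38 to 4.19, fell by 1.17 ± 0.32 (adjusted p = 0.00761), to a ratio of 0.361. SAUR26, at 1.25 to 3.21 against 3.26 to 5.88, fell by 1.0 ± 0.37 (adjusted p = 0.0412), to a ratio of 0.459. In each of these the MIM156 libraries were all below the Col-0 libraries, a separation that was not counted over all genes. SAUR28, at 0.779 to 1.61 against 1.1 to 1.58, was not called, with a log2 difference of -0.20 ± 0.30 (95% interval -0.81 to 0.42, adjusted p = 0.672) and a ratio of means of 0.842. Markers moved in the same comparison. The photosynthesis sum was 24180 to 29030 scaled CPM in MIM156 against 33970 to 42140 in Col-0, with 4 of 7 markers called lower. The seed storage sum was 4.52 to 98.2 against 4.11 to 10.5, with 3 of 4 called higher. The root hair sum was 20.2 to 29.4 against 22.1 to 31.6, and the part of these shifts in the result was not tested.

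These MIM156 calls were near the threshold. edgeR called 2 of the 4, with SAUR26 at an adjusted p of 0.0689, and SAUR26 also missed it with a pseudocount of 0.1 (0.0538) and with totals as deposited (0.0640). Leaving out the Col-0 library of replicate 1 or the MIM156 library of replicate 2 left SAUR29 alone, with SAUR27 at 0.0564 and 0.0835. Leaving out the MIM156 library of replicate 3 left SAUR27 alone, with SAUR29 at 0.0544. SAUR26 was lost in these 3 settings and without the Col-0 library of replicate 3, at adjusted p-values of 0.0709 to 0.176.

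At 21 °C, 1 of 4 genes was called lower in MIM156 than in Col-0, where 15.3% of all genes were. SAUR29, with 0.111, 0.182 and 0.173 scaled CPM in MIM156 against 2.32, 0.944 and 0.872 in Col-0, fell by 1.44 ± 0.32 on the log2 scale (adjusted p = 0.00121), to a ratio of means of 0.113. It was called lower under every one of its 40 alternatives. SAUR26, at 0.387 to 1.04 against 1.27 to 1.77, differed by -0.86 ± 0.37 (adjusted p = 0.0773, ratio of means 0.422), and SAUR28, at 0 to 0.166 against 0.354 to 0.410, by -0.64 ± 0.30 (adjusted p = 0.112, ratio of means 0.184). Both had all MIM156 libraries below all Col-0 libraries, a separation that was not counted over all genes. SAUR26 was called under 2 of its 41 alternatives and SAUR28 under 2 of its 40. Both passed with a pseudocount of 0.1 (adjusted p = 0.0423 and 0.0262, limma). SAUR28 also passed in DESeq2 (0.0277) but not in edgeR. SAUR27 differed in the other direction, at 0.411 to 0.751 against 0.257 to 0.551, by 0.22 ± 0.42 (95% interval -0.65 to 1.08, adjusted p = 0.748, ratio of means 1.36). SAUR27 in MIM156 was thus called lower than in Col-0 at 27 °C and not at 21 °C, and the test of that contrast is the difference of warm responses given above, which was not called.

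In pif457, 0 of 4 genes were called against Col-0 at 27 °C, where 16.3% of all genes were, and edgeR and DESeq2 also called 0. An unadjusted p under 0.05 (limma) was found for 2 of 4, and for 28.4% of all genes. SAUR26, at 1.81 to 2.7 scaled CPM in pif457 against 3.26 to 5.88 in Col-0, differed by -0.84 ± 0.37 (adjusted p = 0.122, unadjusted p = 0.0288) with no overlap. It was called when only the 2 groups were fitted (adjusted p = 0.0177). SAUR28, at 0.5 to 1.18 against 1.1 to 1.58, differed by -0.63 ± 0.30 (adjusted p = 0.163), SAUR27 by -0.45 ± 0.42 (0.538) and SAUR29 by -0.43 ± 0.32 (0.420). At 21 °C, 0 of 4 were called against Col-0 in pif457, where 10.4% of all genes were, with 0 also at an unadjusted p under 0.05 and by edgeR and DESeq2. The largest difference there was that of SAUR27, 0.869 to 1.23 in pif457 against 0.257 to 0.551 in Col-0, at 0.74 ± 0.42 (adjusted p = 0.282). The other 3 lay between -0.11 and 0.11.

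No member was called in the remaining comparisons, by limma, edgeR or DESeq2. Against Col-0 at 27 °C, the hyl1-2 differences ran between -0.06 and 0.21 on the log2 scale, where 4.28% of all genes were called, and those of dcl1-24/hyl1-2 between -0.35 (SAUR26) and 0.40 (SAUR28), where 2.02% were. At 21 °C, they ran between -0.36 (SAUR28) and 0.17 (SAUR27) in hyl1-2, where 21.8% of all genes were called, and between -0.15 (SAUR29) and 1.02 (SAUR27) in dcl1-24/hyl1-2, where 1.13% were. The 95% intervals of these differences lay within -0.97 and 1.03 in hyl1-2 and within -1.1 and 1.89 in dcl1-24/hyl1-2 on the log2 scale. SAUR27 in dcl1-24/hyl1-2 at 21 °C was the sole one with an unadjusted p under 0.05, at 0.0217 (adjusted p = 0.294, limma), where 12.2% of all genes had one. It stood at 1.83, 0.974 and 1.28 scaled CPM in dcl1-24/hyl1-2, against 0.551, 0.413 and 0.257 in Col-0, with no overlap.

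Between dcl1-24/hyl1-2 and hyl1-2, 0 of 4 genes were called at 27 °C, where 6.17% of all genes were, and 0 of 4 at 21 °C, where 29.8% of all genes were. Unadjusted p-values were under 0.05 for 0 members at both temperatures. At 27 °C the differences lay between -0.50 (SAUR26) and 0.23 (SAUR29). At 21 °C SAUR27 was the furthest from 0, with 1.83, 0.974 and 1.28 scaled CPM in dcl1-24/hyl1-2 against 1.58, 0.0625 and 0.380 in hyl1-2, a log2 difference of 0.86 ± 0.42 (adjusted p = 0.125). Without hyl1-2 replicate 1 at 21 °C it was called (log2 difference 1.38, adjusted p = 0.0173), which made 1 of 4.

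**Figure D4:**
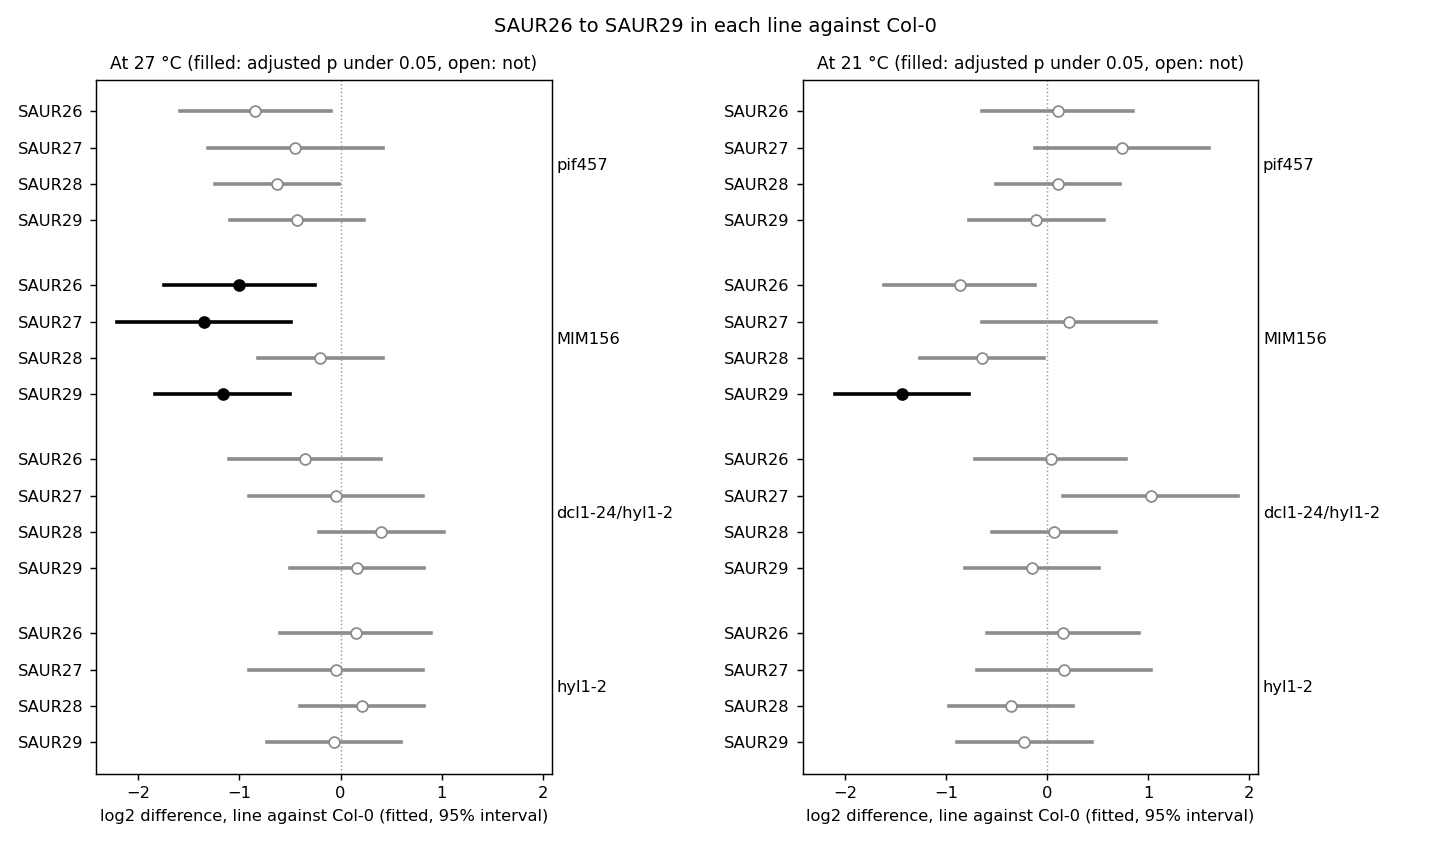
Fitted log2 difference between each line and Col-0 (horizontal axis) for the 4 genes, with 95% intervals, at 27 °C (left panel) and 21 °C (right panel). Filled points were called at an adjusted p under 0.05. They are SAUR26, SAUR27 and SAUR29 in MIM156 at 27 °C and SAUR29 in MIM156 at 21 °C.

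Per kilobase of annotated transcript, SAUR26 was the most abundant member at 27 °C in every genotype. Its mean level was 3.03 ± 0.67 scaled CPM per kb in pif457, 2.79 ± 1.5 in MIM156, 4.89 ± 2.81 in dcl1-24/hyl1-2, 6.88 ± 2.51 in hyl1-2 and 6.08 ± 1.93 in Col-0 (SD, n = 3 each). SAUR29 came next in the lines other than MIM156, at 2.97 ± 0.48 in pif457, 4.83 ± 0.75 in dcl1-24/hyl1-2, 4.10 ± 1.18 in hyl1-2 and 4.31 ± 1.19 in Col-0. In MIM156 the place after SAUR26 went to SAUR28, with 2.00 ± 0.71 per kb against 1.56 ± 0.52 for SAUR29 and 0.769 ± 0.342 for SAUR27. The mean ± SD ranges of SAUR26 and SAUR29 overlapped in all 5 genotypes. Without division by length, SAUR29 was above SAUR26 at 27 °C in pif457 (2.26 against 2.15 scaled CPM) and dcl1-24/hyl1-2 (3.67 against 3.48). It was below SAUR26 in MIM156, hyl1-2 and Col-0.

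Across the 10 groups, the order of the means was led by 27 °C groups. For SAUR26 it ran down hyl1-2 (4.90 ± 1.78 scaled CPM), Col-0 (4.33 ± 1.38), dcl1-24/hyl1-2 (3.48 ± 2.00), pif457 (2.15 ± 0.48) and MIM156 (1.99 ± 1.07) at 27 °C, and then hyl1-2, dcl1-24/hyl1-2, pif457, Col-0 and MIM156 at 21 °C, the last at 0.673 ± 0.334. For SAUR28 all 27 °C groups also stood above all 21 °C groups, led by dcl1-24/hyl1-2 at 2.08 ± 0.88 and closed by MIM156 at 21 °C at 0.0705 ± 0.0857. For SAUR27 and SAUR29 the MIM156 group at 27 °C fell among the 21 °C groups, in place 8 of 10 for both, at 0.561 ± 0.250 and 1.18 ± 0.40. Neighbours in these orders were within their SDs of each other, with exceptions only at the low end. MIM156 at 21 °C was set apart from the next group, Col-0 at 21 °C, for SAUR26 and from hyl1-2 at 21 °C for SAUR29.

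The summed level of the 4 genes was 6.74 ± 0.67 scaled CPM at 27 °C and 4.45 ± 0.93 at 21 °C in pif457, 4.91 ± 1.74 and 1.45 ± 0.44 in MIM156, 11.6 ± 4.0 and 4.90 ± 2.71 in dcl1-24/hyl1-2, 12.0 ± 3.2 and 3.86 ± 1.91 in hyl1-2, and 11.2 ± 2.0 and 3.76 ± 0.67 in Col-0. The sum at 27 °C in pif457 and MIM156 thus covered 3.46 to 7.45 scaled CPM, below the 9.02 to 12.9 of Col-0. At 21 °C that of pif457 (3.52 to 5.38) overlapped Col-0 (3.28 to 4.52) and that of MIM156 (1.16 to 1.96) lay below.

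Over the 30 libraries the members varied together, with SAUR27 the loosest. Pearson r on log2(scaled CPM + 0.5) was 0.78 for SAUR28 and SAUR29, 0.78 for SAUR26 and SAUR29, 0.77 for SAUR26 and SAUR28, 0.69 for SAUR27 and SAUR29, 0.67 for SAUR26 and SAUR27, and 0.55 for SAUR27 and SAUR28, the divergent pair. The libraries share their groups, so most of this is between groups. With the group means taken out, the same 6 values were 0.24, 0.26, 0.46, 0.45, 0.43 and 0.00. The value of 0.00 is that of SAUR27 and SAUR28, which start 509 bases apart. Their lowest libraries held 1 and 0 reads, and no interval was computed, so a shared variation within groups was neither shown nor excluded.

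The 6 other genes most like the cluster, by mean r with the 4 members over the 30 libraries among 20185 genes of at least 1 scaled CPM on average, were not neighbours of it. They were AT1G14120, annotated as a 2-oxoglutarate and Fe(II)-dependent oxygenase (mean r 0.79), HB6 (AT2G22430), a homeobox transcription factor (0.79), CYP96A1 (AT2G23180), a cytochrome P450 (0.79), SAUR20 (AT5G18020, 0.79), AT1G55360, annotated with a DUF239 domain (0.78), and AT5G39865, a glutaredoxin family gene (0.78). Each of the 6 correlated best with SAUR29 except AT5G39865, which was closest to SAUR26.

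SAUR25 (AT4G13790), which is grouped with these 4 genes by sequence but lies on chromosome 4, was near 0. It averaged 0 scaled CPM in both pif457 and both MIM156 groups, and its highest mean was 0.12, in the warm dcl1-24/hyl1-2 group, so it was not tested. SAUR19 to SAUR24, the chromosome 5 group whose proteins are the best studied promoters of cell expansion, were likewise raised by warmth in Col-0. They are close copies of each other, and how unique mapping split their reads was not measured. In Col-0 6 of 6 were called higher at 27 °C, where 8.51% of all genes were. SAUR19 stood at 4.42 against 0.349 scaled CPM (log2 change 2.57 ± 0.31, adjusted p = 5.38e-07) and SAUR22 at 4.31 against 0.717 (2.07 ± 0.34, adjusted p = 4.57e-05). In hyl1-2 6 of 6 were called higher, where 14.3% of all genes were, and in dcl1-24/hyl1-2 5 of 6, where 6.48% were.

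In MIM156, 1 of 6 SAUR19 to SAUR24 genes was called higher at 27 °C by limma, 2 by edgeR and 2 by DESeq2, and 4 had an unadjusted p under 0.05. Of all genes 8.55% were called higher by limma and 30.8% had such an unadjusted p. The limma call was SAUR20, with 1.74 against 0.717 scaled CPM (log2 change 0.86 ± 0.28, adjusted p = 0.0296). Of SAUR26 to SAUR29, all 3 tools called 3 of 4. The median log2 change in MIM156 was 1.19 for SAUR26 to SAUR29, 0.64 for SAUR19 to SAUR24 and 0.26 for the 52 other tested SAUR genes, where that over all tested genes was 0.01. In Col-0 the medians were 1.13, 1.61 and 0.27, against 0.01 for all genes. In pif457 they were 0.37, 0.66 and 0.13, against 0.00 for all genes. The difference of warm response from Col-0 was called lower for SAUR19 alone, in pif457 (-2.41 ± 0.44, adjusted p = 0.00362), where edgeR and DESeq2 called 1 of 6 too, and in MIM156 (-1.81 ± 0.44, adjusted p = 0.0284), where edgeR and DESeq2 called 0. In MIM156, SAUR28 and SAUR29 had the largest log2 changes after that of 1 other SAUR gene among the 62 tested, and SAUR27 was in place 44. In Col-0 SAUR27 was in place 6 and the others in places 12 to 14. Whether the 2 clusters differ in MIM156 was not tested as such.

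**Figure D5:**
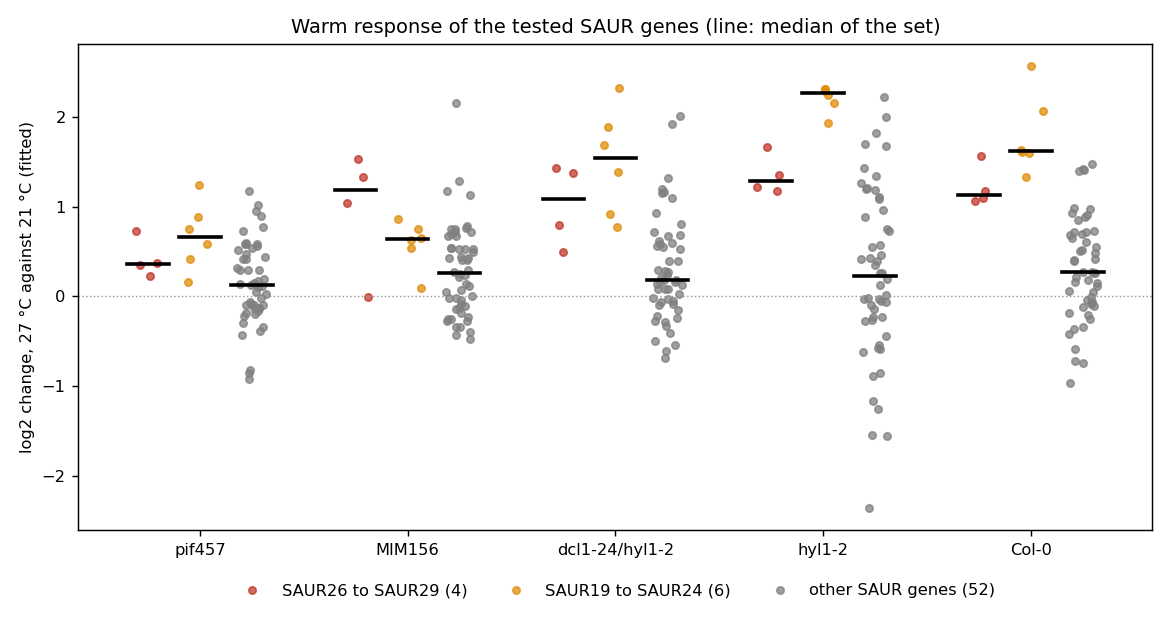
Fitted log2 change between 27 and 21 °C (vertical axis) of all 62 tested SAUR genes in each genotype, as points by set, with a line at the median of the set. SAUR26 to SAUR29 (red) have medians of 1.19 in MIM156 and 1.13 in Col-0, whereas SAUR19 to SAUR24 (orange) have 0.64 and 1.61.

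Of a further list of 32 SAUR genes, 30 were tested, and warmth raised 3 in pif457, 5 in MIM156, 4 in dcl1-24/hyl1-2, 11 in hyl1-2 and 6 in Col-0, and lowered 0, 0, 1, 4 and 1. Of all tested genes, 8.27, 8.55, 6.48, 14.3 and 8.51% were called higher in the same order, and the shares of this list called higher were not tested against them. SAUR1 had the largest rise of the list in MIM156, to 2.79 scaled CPM at 27 °C against 0.329 at 21 °C (log2 change 2.15 ± 0.42, adjusted p = 0.000507). SAUR68 had the largest in Col-0, at 1.23 against 0.147 (1.48 ± 0.29, adjusted p = 0.000342). Differences of warm response from Col-0 were called for 2 of the 30, SAUR16 (higher) and SAUR36 (lower), both in hyl1-2. In pif457, MIM156 and dcl1-24/hyl1-2 limma, edgeR and DESeq2 each called 0, with 6, 2 and 0 at an unadjusted p under 0.05.

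Among the 9 PP2C.D phosphatases, PP2C.D1 was the one called by limma in a warm response. It was called higher in warmth in dcl1-24/hyl1-2 (99.4 against 41.2 scaled CPM, log2 change 1.28 ± 0.30, adjusted p = 0.00464), in hyl1-2 (112 against 17.9, 2.65 ± 0.30, adjusted p = 9.6e-07) and in Col-0 (73.4 against 26.8, 1.46 ± 0.30, adjusted p = 0.00109). The other 8 PP2C.D genes were not called in any warm response by limma. Of all genes, 6.48% in dcl1-24/hyl1-2, 14.3% in hyl1-2 and 8.51% in Col-0 were called higher. In pif457 and MIM156 limma called 0 of the 9, with 2 and 1 at an unadjusted p under 0.05, edgeR 0 in both, and DESeq2 1 in pif457 and 0 in MIM156. Between MIM156 and Col-0 at 27 °C, 2 of the 9 were called higher and 3 lower, where 12.8% and 14.6% of all genes were. PP2C.D1 was among the lower ones (-1.09 ± 0.30, adjusted p = 0.00860), with PP2C.D5 (-0.41, adjusted p = 0.00846), and PP2C.D9 was higher (0.59, adjusted p = 0.00975). Of the plasma membrane H+-ATPases, 9 of 11 were tested. In pif457 and Col-0 limma called 0, with 3 and 2 at an unadjusted p under 0.05, edgeR 0 in both and DESeq2 1 in both. In MIM156, AHA8 and AHA3 rose and AHA11 fell, with log2 changes of 0.68 ± 0.16, 0.41 ± 0.13 and -0.54 ± 0.14 (adjusted p = 0.00410, 0.0296 and 0.00754). In hyl1-2, 1 rose and 4 fell, and in dcl1-24/hyl1-2 AHA11 fell alone. Of all genes, 8.55% were called higher and 9.76% lower in MIM156, 14.3% and 17.2% in hyl1-2, and 6.48% and 7.9% in dcl1-24/hyl1-2.

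A list of 18 upstream regulators held genes of auxin, brassinosteroid and PIF signalling, and also SPL9, a target of miR156. Of these 18, warmth raised 3 in pif457, 2 in MIM156, 5 in dcl1-24/hyl1-2, 9 in hyl1-2 and 4 in Col-0, and lowered 1, 1, 1, 0 and 0. The shares of all genes called higher were 8.27, 8.55, 6.48, 14.3 and 8.51% in the same order. In Col-0 the largest rises were those of YUC8, an auxin synthesis enzyme (8.89 against 2.24 scaled CPM, log2 change 1.80 ± 0.24, adjusted p = 2.53e-06), PIF4 (86.1 against 31.7, 1.51 ± 0.24, adjusted p = 5.69e-05) and YUC9 (1.58 against 0.380, 1.24 ± 0.29, adjusted p = 0.00314). In MIM156 YUC9 and YUC8 rose, the second to 5.52 against 2.92 (0.82 ± 0.24, adjusted p = 0.0166), and PIF7 fell to 4.91 against 8.63 (-0.75 ± 0.25, adjusted p = 0.0339). The warm response of YUC8 was lower in pif457 than in Col-0 (difference -1.44 ± 0.34, adjusted p = 0.0258). That was the one call of the list among the pif457 differences. Among the MIM156 differences limma called 0 of the 18, with 3 at an unadjusted p under 0.05, edgeR 0 and DESeq2 1.

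Beyond the cluster, warm responses were mixed. Of the 4 genes annotated between the members, which are AT3G03826, AT3G03828, a tRNA gene and the SAUR-like AT3G03847, none had values in the table. Of the 10 nearest flanking genes, 6 were tested. In Col-0, AT3G03870 was called higher at 27 °C (log2 change 0.74 ± 0.14, adjusted p = 0.00027), AT3G03790, an ankyrin repeat gene, was called lower (-0.48 ± 0.12, adjusted p = 0.00458), and MS2, a methionine synthase gene, EDA30, APRL5 and the pseudogene AT3G03855 were not called. AT3G03870 was called higher in all 5 genotypes, at log2 changes of 0.50 to 0.89, pif457 included (0.83 ± 0.14, adjusted p = 8.96e-05). Its mean r with the 4 members was 0.49, that of AT3G03790 -0.60, and those of the other 4 were 0.11 to 0.46.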

How the data were processed

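Poly(A) RNA of whole seedlings was sequenced as 150-base read pairs in 30 libraries. STAR 2.7.7a was the authors' aligner and featureCounts 2.0.1 their counter, on Araport11 with uniquely mapped reads, and their own tests were made with DESeq2 1.35.0. No source used here gives the strandedness. The deposited sheet carries the name FPKM, yet its unit is CPM. The columns all summed to nearly the same total, and the smallest values came in whole steps. The planned test fits either unit.

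Each library was divided by its median-of-ratios factor (0.810 to 1.28, over 21062 genes with reads everywhere). Genes of at least 1 scaled CPM in at least 3 libraries were fitted with limma 3.58.1 (trend and robust) on log2(scaled CPM + 0.5), with 10 group means and 20 comparisons. The median gene changed by at most 0.03 in any of them. With the totals as deposited it shifted by up to 0.36 on the log2 scale (warm response in MIM156), and the share of higher calls in the warm responses was 49.9 to 90.6% in place of 45.1 to 47.4%. Alternatives were those totals, pseudocounts of 0.1 and 2, no filter, a filter of 5 scaled CPM, only the groups compared, a replicate block, no trend and robust, edgeR 4.0.16 (TMM) and DESeq2 1.42.0 on the whole reads, each library left out, and, chosen after seeing the data, the 3 libraries numbered 3 at 21 °C in MIM156, dcl1-24/hyl1-2 and Col-0 left out together. Same-numbered libraries deviated together (every r over 0.1) in 7 of 15 group pairs, among them Col-0 at 27 and 21 °C (0.14 to 0.17), and the labels give no reason for a pairing. In those 7 the block changed no call of a member. By another measure the pattern was wider. In every comparison of genotypes at the same temperature, and in the Col-0 warm response, each library correlated best with its own number. The main fit holds no term for replicate number.

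The members, the gene lists and the rule for named genes were chosen with earlier results of these data known. Named genes were the 4 members, the 6 genes most like them, the genes between and 5 on each side, up to 3 called genes per list, SAUR25 and the targeted genes. Sequences and gene models came from the TAIR10.1 RefSeq annotation, to which 25076 of 25300 genes were matched. Coding sequences were aligned with Biopython 1.88, and whole transcripts were searched in the genome with BLAST 2.17.0. The limma procedure was also run on simulated data, with the same dispersion for every gene and no effect of replicate number. That run therefore does not cover the spread between replicates seen here.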

Additional observations from a re-analysis of the deposited data

Results flagged for a closer look

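Among the genes named from the other lists, several differences of warm response from Col-0 were called by limma. For SAUR26 to SAUR29 limma, edgeR and DESeq2 called 0. In pif457, SAUR19 differed by -2.41 and YUC8 by -1.44 on the log2 scale. In MIM156, SAUR19 differed by -1.81, a call that edgeR and DESeq2 did not make. In hyl1-2, PIF4 differed by 1.52, PIF5 by 1.07, HBI1 by 1.20, HYL1 by 1.83 and SAUR16 by 1.09, and YUC9 differed by -1.47, AHA4 by -1.32 and SAUR36 by -1.20.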

How the results depend on the processing

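The 4 genes were compared in 20 comparisons under up to 41 alternatives each, which gave 3220 values. Of these, 3174 kept their side of the threshold, 39 lost a call and 7 gained one. Among called values 0 changed sign, while 78 values that were not called under either setting did. With a filter of 5 scaled CPM only SAUR26 was tested, so the members called were 1 for the warm responses in MIM156, hyl1-2 and Col-0, 0 for that in dcl1-24/hyl1-2, and 1 at 27 °C and 0 at 21 °C for MIM156 against Col-0. With only the groups compared, 1 member was called for pif457 against Col-0 at 27 °C. For MIM156 against Col-0 at 21 °C, 2 were called by DESeq2 and 3 with a pseudocount of 0.1. With the replicate number as a block 2 were called there, since SAUR26 passed (adjusted p = 0.0487, limma), and the block changed no other call. That comparison's lowest correlation of same-numbered libraries was 0.08, although every library correlated best with its own number. With 1 library left out, the members called ranged over 2 to 4 for the warm responses in hyl1-2 and Col-0, 2 to 3 for that in MIM156, 1 to 3 for MIM156 against Col-0 at 27 °C and 0 to 1 for dcl1-24/hyl1-2 against hyl1-2 at 21 °C. Leaving out the 3 libraries at 21 °C together ended the Col-0 call of SAUR29 (adjusted p = 0.0971). Other than by fewer genes tested or fewer libraries, the cause of these changes was not tested. Between 0 and 168 reads per gene and library limit what smaller differences could be seen.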
